A study of Mus musculus with 469 samples.

Results

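Sustentacular-rich cells were single-cell libraries of the unsorted olfactory epithelium that were chosen by their levels of 10 genes: Cyp2g1, Cyp2a5, Cyp1a2, Ermn, Cbr2, Sec14l3, Ugt2a1, Gpx6, Krt18 and Hes1. A library was selected when it had 1000 to 10000 genes at a value of 1 or more, when 6 or more of the 10 genes were at 10 CPM or more (a gene's part of the library's deposited signal, scaled so that all libraries have the same total), and when their summed CPM was 5000 or more. The rule took 73 cells, 25 of them in run 1 and 48 in run 2. They were 73 of the 130 reference cells within the limits of gene number, 38.02% of all reference cells and 15.57% of the cells of the series. The reference came from uninjured wild-type F1 mice of strain B6;129SF1/J, aged 8 weeks, whose dissociated epithelium was captured without a sort in 2 runs of 96 microfluidic chambers (Fluidigm C1, polyadenylated RNA). The other groups of the series were eGFP sorts: Neurog1-eGFP+ cells of strain FVB Neurog1-eGFP, uninjured and 5 or 14 days after removal of the olfactory bulb, and OMP-eGFP+ cells of strain B6 OMP-eGFP, 14 days after that injury or after transplantation, all aged 8 weeks. The labels name no animal, so each run was 1 sample, no test was made, and run, capture and animal cannot be told apart.

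Sustentacular cells are the supporting cells of the olfactory epithelium. Their bodies form the outermost row of nuclei, their microvilli reach into the mucus among the cilia of the sensory neurons, and they insulate the neurons, take up debris and regulate the ions and water of the mucus. They are known for a high content of cytochrome P450 enzymes and conjugating enzymes, which act on odorants and inhaled toxicants: phase I enzymes add or expose a reactive group, and phase II enzymes attach a glucuronide, sulfate or glutathione to it. Trypsin and a mix of collagenase, hyaluronidase, dispase and papain released the cells here, at 37°C.

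The summed CPM of the 10 selecting genes was 7925, 83950 and 142754 (lowest, median and highest) in the 25 sustentacular-rich cells of run 1, and 19.3, 626 and 7759 in the 34 other cells of that run. In run 2 it was 5174, 19878 and 102566 in the 48 cells and 134.3, 1426 and 16202 in the 23 others. The sums chose the cells, so the gap is a description. The selected cells of run 2 lay closer to the limits: 11 of the 48 had a sum between 5000 and 10000, against 2 of the 25 in run 1, and 5 and 1 had no more than 6 of the genes. Just inside the limit were sums of 7925 and 9379 in run 1 and of 5174 and 5506 in run 2. Just outside were cells with sums of 7759 and 7209 in run 1, with 5 and 1 of the genes found, and of 16202, 11597 and 8323 in run 2, with 5, 4 and 5 found. Cells near the limits thus occurred in both runs. The same values chose the cells, so they do not show whether the class has a clear edge. The share of cells selected was 42.4% in run 1 (exact Clopper-Pearson 95% interval 29.6 to 55.9) and 67.6% in run 2 (55.5 to 78.2). These intervals, like all others here, cover counting error only.

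**Figure D1:**
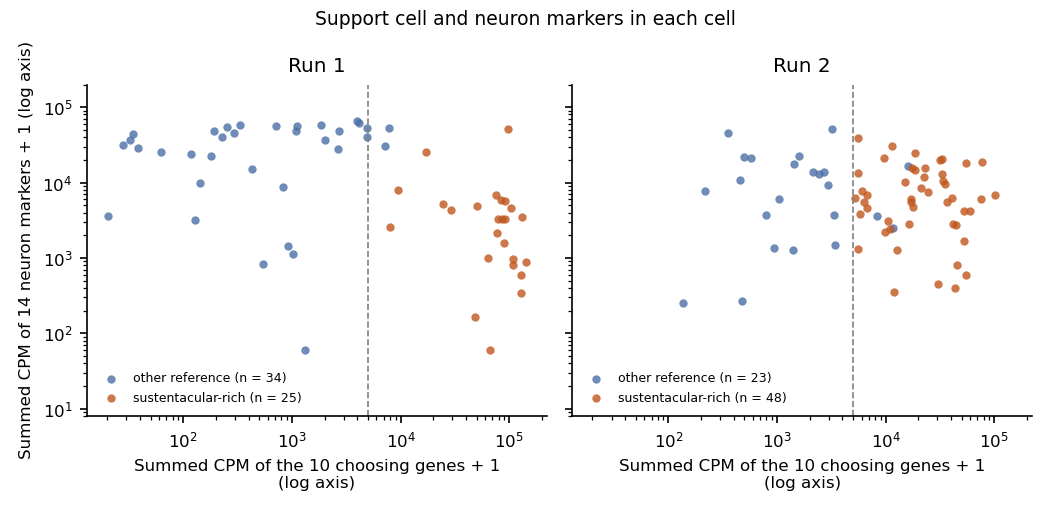
Summed CPM + 1 of the 10 selecting genes (horizontal axis, log scale) against the summed CPM + 1 of 14 markers of mature olfactory sensory neurons (vertical axis, log scale), 1 point per reference cell with 1000 to 10000 genes, with run 1 and run 2 in separate panels and the dashed line at the limit of 5000. The selected cells of run 1 reached a median of 83950 on the horizontal axis and those of run 2 a median of 19878, and many cells of run 2 were high on both axes.

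Markers of neurons were present in many of the same cells. The summed CPM of 14 markers of mature olfactory sensory neurons, among them Omp, the olfactory marker protein, was 59.6, 3284 and 51661 in the sustentacular-rich cells of run 1 and 58.3, 36664 and 65200 in the others. In run 2 it was 357.3, 6185 and 38999 against 251.6, 9388 and 51022, so the sets overlapped in full. By the same condition applied to the neuron markers (6 or more found, a sum of 5000 or more), 5 of the 25 selected cells of run 1 (20%, interval 6.83 to 40.7) and 28 of the 48 of run 2 (58.3%, 43.2 to 72.4) were rich in neuron markers as well. The selected cells had a median of 1 odorant receptor gene at 50 CPM or more in run 1 and of 4 in run 2, against 1 and 3 in the other cells. How many cells a chamber held is not given in the sources used here. No doublets were called, and the part of RNA from other cells in these values was not tested.

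Of the 73 cells, 11 also stood apart by another list of markers. In run 1, 1 held 9 of 10 immune cell markers with a sum of 8912 CPM, 1 held 5 markers of globose basal cells, which are the dividing progenitors, with a sum of 2672, and 1 had the vessel-associated gene Rgs5 at 103214 CPM. In run 2, 4 were rich in markers of microvillar cells, with sums of 99664, 20438, 1719 and 737 CPM, 1 held 5 markers of horizontal basal cells, and 3 had Rgs5 at 69329 to 88705 CPM. Counts over all genes are given below with and without these 11, a comparison chosen after seeing the data.

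The fragments behind the cells could be recovered from the steps of the values. They numbered 64902 to 1912175 over the 130 reference cells, with medians of 428328 and 676596 in the sustentacular-rich cells of runs 1 and 2 and of 437648 and 913845 in the others. At the median of 512008 fragments, 10 CPM was about 5.12 fragments, and a gene at that level or above is called found. The selected cells had a median of 2772 and 2481 genes, and the others 1850.5 and 2336. For comparison, neuron-rich cells are the 28 and 14 other cells that met the condition on the neuron markers. The 5 and 28 selected cells that met it too are not among them. The rule thus partly set the low levels of the selecting genes, and of genes that go with them, in the neuron-rich cells. The median depths of the neuron-rich cells were 273348 and 658527 fragments.

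The 4 genes that name the cell type were all present, as the rule made likely. Cyp2g1, a cytochrome P450 restricted largely to the olfactory mucosa, was found in 25 of 25 and 48 of 48 cells, at 304.6, 13360 and 34360 CPM in run 1 and at 55, 2682 and 25104 in run 2. It was found in 11 of the 28 neuron-rich cells of run 1 and in 7 of 14 in run 2, with a mean over all other cells of 250.8 and 129 CPM. The lowest selected cells and the highest other cells overlapped in both runs. Sec14l3, a lipid-binding protein of secretory epithelia, was found in 24 of 25 and 48 of 48 cells with means of 26868 and 10958 CPM, against 602 and 968 in the others, where it was also found in 24 of 34 and 23 of 23 cells. Its presence in other cells was therefore as common in run 2 as in the selected ones, and the level set them apart. Ugt2a1, a glucuronosyltransferase that acts on odorants, ran from 1472 to 44336 CPM in run 1, above the highest of the other cells at 1381, and from 319.2 to 16333 in run 2, where others reached 11286. Ermn, which encodes the actin-binding protein ermin, was found in 23 of 25 and 39 of 48 cells, against 0 of 34 and 3 of 23.

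Each gene was also left out of its own selection. The other 9 selecting genes still chose the cells, so the shares describe the selection and do not test the label. When the cells were chosen on the other 9 genes, Cyp2g1 was still found in 23 of 23 and 42 of 42 cells, against 14 of 36 and 16 of 29 of the rest. Ermn was found in 23 of 25 and 35 of 44, against 0 of 34 and 7 of 27. Hes1, a transcriptional repressor downstream of Notch, was found in 16 of 24 and 21 of 48, against 2 of 35 and 4 of 23. Gpx6, an olfactory glutathione peroxidase, was found in 4 of 25 cells of run 1 and 27 of 46 of run 2, against 2 of 34 and 5 of 25. In run 2 several of the genes were found almost as often in the rest. Sec14l3 was found in 38 of 38 cells against 33 of 33, with means of 12878 and 1784 CPM, and Ugt2a1 in 38 of 38 against 28 of 33, with means of 7919 and 1446. Cbr2 was found in 42 of 45 against 19 of 26 and Cyp2a5 in 40 of 43 against 20 of 28. By detection alone these 4 genes therefore set the cells of run 2 apart weakly or, for Sec14l3, not at all. Per transcript length, 5 of the selecting genes stood at the highest levels in run 1: mean FPKM (fragments per kilobase of transcript, scaled to library size) was 8969 for Cyp2g1, 7477 for Cbr2, a carbonyl reductase, 7200 for Cyp2a5, 7074 for Sec14l3 and 6531 for Ugt2a1. Cyp1a2, a P450 best known from liver, where it oxidises caffeine, was lower at 911, as were Krt18 at 1099 and Gpx6 at 539, and Ermn and Hes1 were lower again at 173.97 and 102.9. In run 2 the mean FPKM of the same 5 genes was 1534 to 2864, and that of the other 5 was 46.2 to 619.

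Of 10 further sustentacular markers that the rule did not use, 6 were measured in both runs and 5 of them, including Krt8, Sox2, Pax6 and Notch2, were at least 2-fold higher in the selected cells of each run. Measured means a mean of 10 CPM or more in the selected or the other cells of that run, and folds are ratios of mean CPM + 1. The summed CPM of the 10 was 13.8, 1396 and 4187 in run 1 against 0, 0 and 1226 in the other cells, and 1.64, 454.6 and 6666 in run 2 against 0, 39.9 and 646. Hes5, another Notch effector, was listed at 0 in every one of the 130 cells. These genes come from the cells that the rule selected, so their levels describe the selection and do not test it.

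Across all genes, 7047 were measured in both runs outside the selecting genes, and 1192 (16.9%) were at least 2-fold higher in the sustentacular-rich cells of each run while 697 (9.89%) were at least 2-fold lower. In run 1 alone 2887 of 8816 measured genes were higher (32.7%) and 3250 lower (36.9%), and in run 2 alone 3319 of 8396 were higher (39.5%) and 1962 lower (23.4%). Since levels in the same cells chose them, nothing is read from these shares. The runs shared a part of their calls: of the genes higher in run 1, 54.6% were also higher in run 2, and of those higher in run 2, 44.98% were higher in run 1, while 1094 genes were at least 2-fold apart in opposite directions. Without the 11 cells that stood apart, 1134 genes were higher and 725 lower in both runs. With the median over cells in place of the mean, 830 genes were measured in both runs, of which 38.8% were higher and 74 genes (8.92%) lower, so that 81.3% of the counted genes were higher against 63.1% by the mean. Without the cells that were also rich in neuron markers that share was 47.4%. A gene that reached the measured limit only through the selected cells could not come out lower, so the counts of the lists below are no support for a direction. In at least 1 run, this held for 5 of the 6 measured sustentacular markers and 2 of 10 genes of keratins and microvilli. It held for 2 of 7 Notch, 4 of 8 secreted, 3 of 10 transport and 4 of 12 phagocytosis genes. The same was true of 2 of 5 retinoid, 1 of 9 immature neuron and 4 of 11 sterol and fatty acid genes, and of 1 of 7 globose basal and 3 of 6 microvillar markers. For the other lists of processes the number is given below. The median log2 ratio over all 7047 genes was -0.17 in run 1 and 0.38 in run 2, beside which each list below is set. The counts of each list stand beside the shares over all 7047 genes, 16.9% higher and 9.89% lower.

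Of 42 phase I genes of oxidation and reduction outside the rule, 18 were measured in both runs, 14 were higher in both and 0 were lower, with a median log2 ratio of 4.57 in run 1 and 3.0 in run 2. In at least 1 run, 10 of the 18 were measured only through the selected cells, and 5 of the remaining 8 were higher. Cyp2f2, a P450 of airway and nasal epithelium that activates naphthalene, was found in 25 of 25 and 42 of 48 cells. Its levels were 55.4, 11104 and 20004 CPM in run 1 and 0, 1187 and 18171 in run 2, and its median in the other cells was 5.72 and 15.3 CPM, although 1 other cell of run 1 reached 12120. The log2 ratio of means was 4.29 and 4.0. Por, the reductase that feeds electrons to all microsomal P450 enzymes, was found in 24 of 25 and 34 of 48 cells with log2 ratios of 5.80 and 1.28. Cyb5, cytochrome b5, which donates an electron in some P450 reactions, was found in 24 and 43 cells with ratios of 4.37 and 2.33, and its reductase Cyb5r3 had ratios of 5.81 and 2.22.

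Other phase I families were found in fewer cells. Ces1d, a carboxylesterase, was found in 20 of 25 and 26 of 48 cells, with medians of 246.3 and 12.3 CPM, against 1 of 34 and 1 of 23 others. The flavin monooxygenase Fmo2 was at a median of 0 in run 1 and of 6.03 in run 2, and its mean of 712 CPM in run 2 rested on few cells, the highest at 13260. Aldh1a7, an aldehyde dehydrogenase, was found in 3 and 15 cells, and Ephx1, the microsomal epoxide hydrolase, in 12 and 19. Cyp2a4, whose sequence is nearly the same as that of Cyp2a5, was found in 24 and 30 cells at medians of 199.4 and 34.1 CPM; reads of these 2 genes can be split between them in counting, so the lower value is uncertain. Nqo1, a quinone reductase, went the other way, with log2 ratios of -1.93 and -0.66, and was found in 22 of 28 neuron-rich cells of run 1.

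The list of phase II conjugation, which also holds the sulfurtransferase Tst, had 12 of 18 genes higher in both runs and 1 lower, with medians of 4.91 and 4.42. Here too 10 were measured only through the selected cells in at least 1 run, and 4 of the remaining 8 were higher. Sult1c1, a sulfotransferase, was among the most abundant transcripts of the cells, at 553, 12818 and 33951 CPM in run 1 and at 0, 1927 and 20156 in run 2. The other cells had it at medians of 18.2 and 296.7 CPM, and the sets overlapped. Mgst1, the microsomal glutathione transferase, was found in 22 of 25 cells at a median of 3157 CPM and in 33 of 48 at 438.3, against 6 of 34 and 7 of 23 others, with log2 ratios of 6.55 and 5.84. Gstm1, a cytosolic glutathione transferase, varied from 0 to 18113 CPM in run 1 and from 0 to 25154 in run 2, and it was found in 16 and 39 cells. Gsta3, an alpha-class transferase, was found in 16 of 25 cells in run 1, where it was listed at 0 in every other cell. Members of the mu class share much of their sequence, so the split among Gstm1, Gstm2 and Gstm5 is uncertain. The exception was Sult1d1, a sulfotransferase of amines such as dopamine, which was lower by 3.09 and 1.44 on the log2 scale and was found in 31 of 34 and 19 of 23 other cells.

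Antioxidant enzymes and their regulators had 9 of 17 genes higher in both runs, 6 of the 11 that the other cells also brought to the limit in each run, with medians of 1.61 and 1.68. Prdx6, a peroxiredoxin that reduces phospholipid peroxides, was found in 24 of 25 and 43 of 48 cells at medians of 4170 and 849 CPM, with log2 ratios of 5.51 and 4.62. Prdx1 and the superoxide dismutase Sod1 were also found in most other cells of run 1, in 26 and 28 of 34, and their ratios were smaller, at 2.33 and 2.49 there and 2.65 and 1.93 in run 2. Nfe2l2, the transcription factor of the antioxidant response, had ratios of 1.10 and 0.64 and did not reach 2-fold in run 2. Ahr, the receptor that induces P450 genes on exposure to aromatic compounds, was found in 1 of 25 and 7 of 48 cells. It was counted as lower, and its ratio turned positive, to 0.41, when cells with fewer than 2000 genes were left out.

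**Figure D2:**
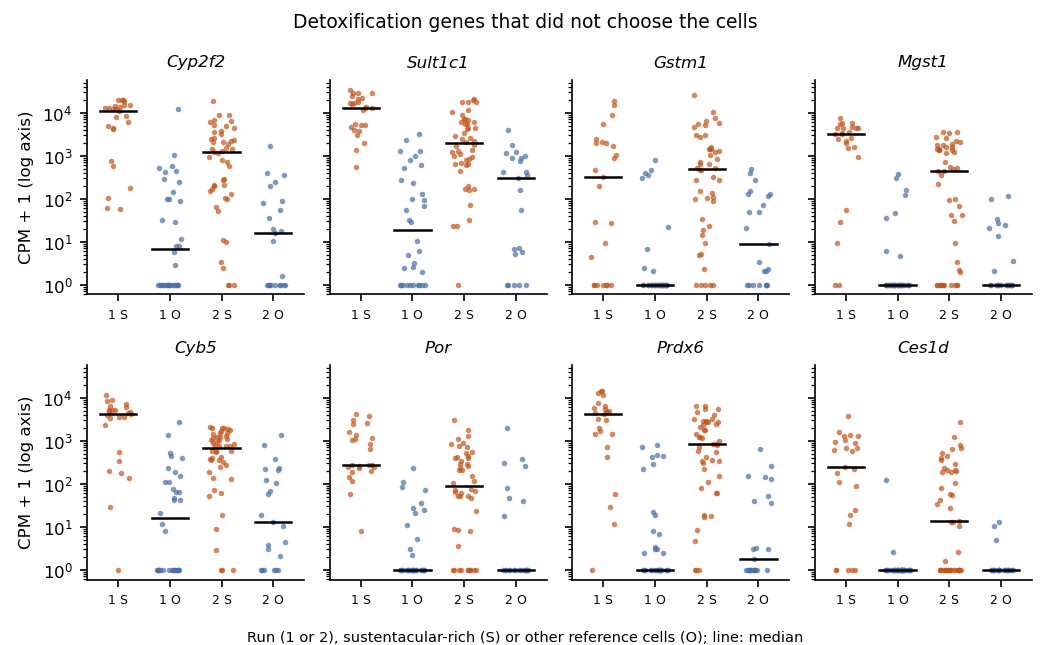
CPM + 1 per cell (vertical axis, log scale) of 8 detoxifying or antioxidant genes, Cyp2f2, Sult1c1, Gstm1, Mgst1, Cyb5, Por, Prdx6 and Ces1d, in the selected (S) and other (O) cells of runs 1 and 2, with a line at each median. The medians of Cyp2f2 were 11104 and 1187 in the selected cells and 5.72 and 15.3 in the others, and cells at 0 occurred in both sets for most of the genes.

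Of 25 measured genes of junctions and polarity, 10 were higher in both runs, 0 were lower and the other 15 were not counted, with medians of 1.76 and 1.35. Of the 14 not measured through the selected cells alone in either run, 4 were higher. Cdh1, E-cadherin of the adherens junction, was found in 20 of 25 and 29 of 48 cells with log2 ratios of 3.83 and 1.35, against 1 of 34 and 3 of 23 others and 0 of the neuron-rich cells of either run. Cgn, cingulin of the tight junction, had ratios of 2.64 and 2.05. The claudins divided: Cldn4, Cldn7, Cldn8, Cldn10 and Cldn12 were counted as higher, whereas Cldn3, also found in 14 of 34 other cells of run 1, had ratios of 0.58 and -1.21. Epcam, a general epithelial adhesion molecule, was found in 21 and 12 of the other cells and had ratios of 1.45 and 0.84. The scaffold gene Tjp1 had ratios of 1.2 and 0.75.

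Keratins and the cytoskeleton of microvilli had 5 of 10 measured genes higher and 1 lower, beside 16.9% and 9.89% of all measured genes. The medians were 1.53 and 1.42. Of the 8 that the other cells also brought to the limit in each run, 4 were higher and 1 was lower. Krt8, the type II partner of the selecting gene Krt18, was found in 21 of 25 cells of run 1 at 0, 190 and 2307 CPM and in 33 of 48 of run 2 at 0, 87.9 and 2231. It was found in 3 of 34 and 5 of 23 others, with log2 ratios of 4.0 and 1.48. Every selected cell with Krt8 had Krt18: both were found in 21 and 33 cells, Krt8 alone in 0 and 0, and Krt18 alone in 3 and 12. Krt18 helped to choose the cells and was found in 24 of 25 and 45 of 48, so this overlap describes the selection. Ezr, which encodes ezrin, the linker of membrane and actin in microvilli, was found in 22 and 30 cells with ratios of 1.73 and 1.36, and its scaffold Slc9a3r1 had ratios of 2.13 and 2.72. Vil1, villin of the intestinal brush border, was listed at 0 in all cells, and Pdzk1, a scaffold of the same family as Slc9a3r1, was lower by 1.99 and 3.61 on the log2 scale, at a mean of at most 5.67 CPM in the selected cells.

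Transcription factors of supporting and other epithelial cells had 11 of 16 measured genes higher in both runs and 0 lower, with medians of 2.79 and 2.19. Only through the selected cells in at least 1 run were 9 of the 16 measured, and 3 of the remaining 7 were higher. The summed CPM of the list was 13.8, 3103 and 6051 in run 1 against 0, 31.7 and 5641 in the others, and 9.25, 2325 and 8884 in run 2 against 4.13, 311.9 and 4303. Pax6, a homeobox regulator of olfactory and eye development, was found in 10 of 25 and 13 of 48 cells and in 0 of the other cells, whose highest values were 8.24 and 4.64 CPM. Sox2, a factor of supporting and basal cells, was found in 8 and 20 cells and in 0 of the 28 and 14 neuron-rich cells, at low medians of 4.16 and 2.0 CPM. Elf5, an epithelial ETS factor, was found in 10 and 22 cells and was listed at 0 in all others of run 1. Klf4, a zinc finger factor of barrier epithelia and also an immediate early gene, had ratios of 5.53 and 1.30. Otx2, a head homeobox factor, had 1.37 and 1.10, and it was under 2-fold in at least 1 run, with a mean ratio of 0.99, without the 11 cells that stood apart.

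Nuclear factor I proteins were the most widespread of these regulators. They are known from rat olfactory mucosa as activators that bind the promoter of a nasal P450 gene, at sites built around the letters TTGGC. Nfia was found in 21 of 25 cells at 0, 381.1 and 1555 CPM and in 34 of 48 at 0, 146.3 and 2137, against 7 of 34 and 8 of 23 others, with log2 ratios of 3.16 and 1.85. Nfib was found in 22 and 36 cells with ratios of 2.79 and 0.51, so only Nfia was counted in both runs, and the difference between the 2 genes was not tested. The promoters of 3 selecting genes that hold those letters are shown so that the matches can be read in place; the 3 were chosen after the matches were seen. Each run is the 250 bases before the transcription start in RefSeq's table for GRCm38.p6, 5′ to 3′ on the gene's own strand, with TTGGC and its complement GCCAA in capitals.
Cyp2a5, chr7:26835089-26835338, plus strand: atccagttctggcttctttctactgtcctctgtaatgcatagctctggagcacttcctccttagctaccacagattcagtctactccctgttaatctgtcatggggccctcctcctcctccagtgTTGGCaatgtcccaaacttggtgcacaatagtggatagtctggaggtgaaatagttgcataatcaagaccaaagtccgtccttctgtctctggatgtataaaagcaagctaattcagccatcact
Cyp1a2, chr9:57683656-57683905, minus strand: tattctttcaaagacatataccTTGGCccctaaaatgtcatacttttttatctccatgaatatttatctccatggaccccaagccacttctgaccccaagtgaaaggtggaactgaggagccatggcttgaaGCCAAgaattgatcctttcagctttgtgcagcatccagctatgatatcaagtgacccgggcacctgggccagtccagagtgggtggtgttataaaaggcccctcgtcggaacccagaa
Ugt2a1, chr5:87490872-87491121, minus strand: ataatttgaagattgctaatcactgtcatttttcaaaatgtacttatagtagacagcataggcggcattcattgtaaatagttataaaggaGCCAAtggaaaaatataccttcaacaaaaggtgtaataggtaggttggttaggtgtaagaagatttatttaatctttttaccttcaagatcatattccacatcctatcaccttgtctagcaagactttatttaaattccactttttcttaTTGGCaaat

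Counted from the start of transcription, the first base of the match lay at -125 in Cyp2a5, at -228 and -118 in Cyp1a2 and at -159 and -9 in Ugt2a1. Of the 10 selecting genes, 8 had a promoter in the table (Cyp2g1 and Hes1 were not among them), and 7 of the 8 held the letters on either strand, all but Krt18. The letters are common: 13637 of 32851 promoters of that length held them (41.5%). Cyp2f2, one of the most abundant P450 transcripts of the cells, did not hold them in this window. A match describes the letters alone.

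Of the Notch pathway, which separates supporting from neuronal fate in this epithelium, 7 of 20 genes were measured in both runs, with 2 higher and 1 lower. The medians were 1.74 and 0.91. Through the selected cells alone, in at least 1 run, 2 of the 7 were measured. Of the remaining 5, 0 were higher and 1 was lower, so the filter fixed the direction of the 2 higher genes. Notch2, a receptor, was found in 23 of 25 cells at 0, 496 and 2709 CPM and in 33 of 48 at 0, 103.2 and 2083. It was found in 1 of 34 and 5 of 23 others, with log2 ratios of 6.25 and 2.35, while Notch1 was below the limit for a measured gene. Among targets, Hey1 had ratios of 2.84 and 0.91, short of 2-fold in run 2. Jag1, a ligand, was found in 21 and 33 cells, with ratios of 1.74 and 0.29. Numb, an inhibitor of the receptor, was counted as higher from 2 and 10 cells. Dll1, the ligand of differentiating precursors, was counted as lower, listed at 0 in all 25 cells of run 1 and found in 1 cell of run 2.

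**Figure D3:**
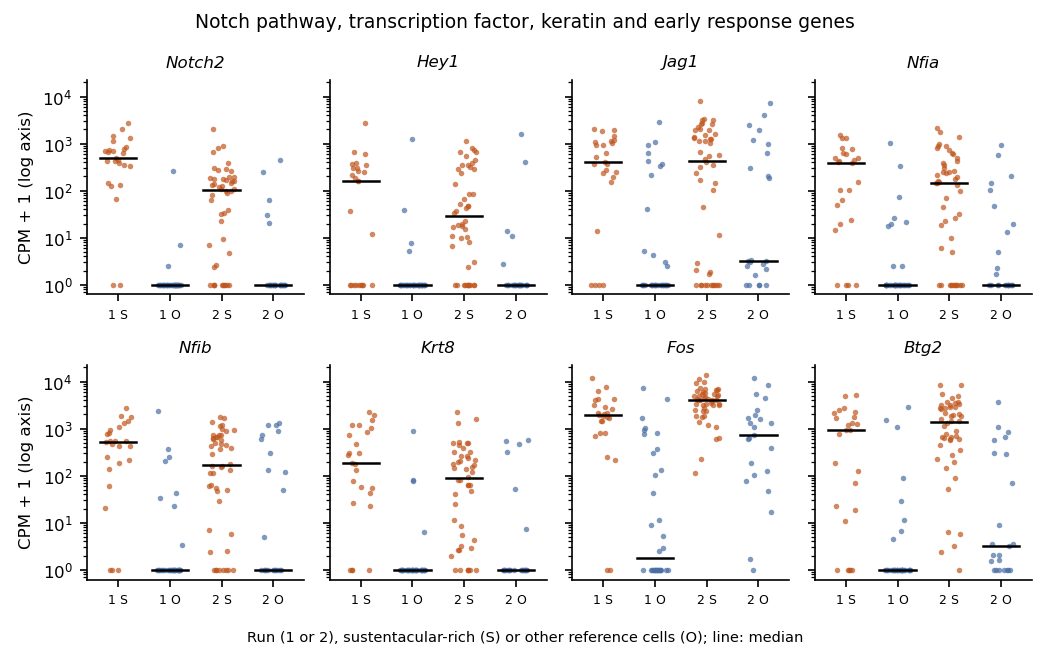
CPM + 1 per cell (vertical axis, log scale) of Notch2, Hey1, Jag1, Nfia, Nfib, Krt8, Fos and Btg2 in the selected (S) and other (O) cells of each run, with a line at each median. Notch2 had medians of 496 and 103.2 in the selected cells, and Fos had medians of 1985 and 4034.

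Secreted proteins had 5 of 8 measured genes higher in both runs and 0 lower, beside 16.9% and 9.89% of all measured genes. The medians were 4.33 and 2.27. Of the 4 that the other cells also brought to the limit in each run, 2 were higher. Muc2, a gel-forming mucin best known from the gut, was found in 23 of 25 and 32 of 48 cells at medians of 693 and 122.4 CPM, against 3 of 34 and 2 of 23 others. Clu, the extracellular chaperone clusterin, had log2 ratios of 4.47 and 3.94. Scgb1c1, a secretoglobin of the olfactory mucosa, had 4.49 and 1.98, and in run 2 it was found in 7 of 14 neuron-rich cells at a mean over all others of 30.1 CPM. Of the 20 genes of this list, 15 had an entry in the deposited data. The odorant-binding proteins and lipocalins among them, which are largely products of nasal glands, were not measured in both runs.

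Of 10 measured genes of ion and water transport, 4 were higher and 0 lower, with medians of -0.12 and 0.52. The shares over all measured genes were 16.9% and 9.89%. Of the 7 that the other cells also brought to the limit in each run, 1 was higher. Aqp3, a water and glycerol channel, was found in 24 of 25 and 36 of 48 cells at medians of 912 and 148.5 CPM, with ratios of 6.92 and 2.53, and Aqp4, a water channel, had 1.01 and 1.59. Aqp4 was under 2-fold in at least 1 run under several settings, among them the set without the 11 cells. Slc12a2, the sodium, potassium and chloride cotransporter, was at medians of 675 and 723 CPM in the selected cells and of 523 and 1300 in the others. Cftr, a chloride channel of microvillar cells, was found in 1 and 2 cells.

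Genes of phagocytosis and lysosomes had 6 of 12 higher in both runs and 0 lower, beside 16.9% and 9.89% of all measured genes. The medians were 1.95 and 1.17. Of the 8 that the other cells also brought to the limit in each run, 2 were higher. Cd36, a scavenger receptor for lipids and cell debris, was found in 20 of 25 and 35 of 48 cells at medians of 803 and 208.7 CPM, against 6 of 34 and 3 of 23 others, with ratios of 1.98 and 5.33. Tyro3, a receptor for the bridging proteins on dying cells, was found in 19 and 21 cells and was listed at 0 in all others of run 2. Its relatives Axl and Mertk were found in 0 and in 1 of the 73 cells. Lamp2, a lysosomal membrane protein, had ratios of 1.98 and 3.27 and was one of the genes named below as the most variable.

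Growth factors and their receptors gave few values: 5 of 20 genes were measured in both runs, each of them only through the selected cells in at least 1 run, so the filter fixed their direction and only their levels are given. Kitl, the stem cell factor, was found in 14 of 25 and 12 of 48 cells, against 0 and 3 others. Met, the receptor of hepatocyte growth factor, was found in 7 and 12 cells, Erbb2 in 4 and 3, and both were listed at 0 in all other cells of both runs. Tgfa and Hbegf, ligands of the EGF receptor, were found in 2 and 6 and in 4 and 6 cells. The receptor gene Egfr itself was found in 2 and 7. Among retinoid genes, Crabp2, a retinoic acid-binding protein, was found in 15 and 20 cells, and Rarb, a retinoic acid receptor, in 8 and 14. Both were counted as higher, but 2 of the 5 measured retinoid genes reached the limit only through the selected cells in at least 1 run. Of the remaining 3, 0 were higher, so the filter fixed the direction of Crabp2 and Rarb.

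Of 19 measured immediate early and stress genes, 15 were higher in both runs and 0 lower, with medians of 2.94 and 1.49. Of the 15 not measured through the selected cells alone in either run, 12 were higher. Fos, a component of the AP-1 factor that is switched on within minutes of a stimulus, was found in 23 of 25 cells at 0, 1985 and 12126 CPM and in 48 of 48 at 114.7, 4034 and 13919. In the other cells it was found in 13 of 34 and 21 of 23, with means of 527 and 1929 CPM and log2 ratios of 2.34 and 1.18. Btg2, an antiproliferative gene, had 2.85 and 2.53, Egr1 2.42 and 1.31, Atf3 2.94 and 3.42 and Dusp1 3.12 and 1.21. The summed CPM of the list was 8693 and 13448 at the median in the selected cells and 1655 and 3624 in the others. The chaperone Hsp90aa1 had ratios of -0.81 and -0.07. Klf4, a member of both this list and that of transcription factors, is counted in each.

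Of 13 measured markers of mature neurons, 2, Rtp2 and Slc17a6, were lower in both runs and 0 were higher, with medians of -2.97 in run 1 and -0.52 in run 2. Over all measured genes 9.89% were lower, so 2 of 13 is near the background. Without the selected cells that were also rich in neuron markers 11 of the 13 were lower, and against neuron-rich cells alone 8 were. The same markers defined both of these sets, so the counts of 11 and 8 describe that choice and test nothing. Omp was found in 20 of 25 and 44 of 48 selected cells, at medians of 188.1 and 1215 CPM against 4194 and 1779, with log2 ratios of -1.27 and -0.52. Of 9 markers of immature neurons, 5 were lower: Gap43, a growth cone protein, by 2.60 and 1.89, and Dcx, Ncam1, Stmn1 and Stmn2. The share over all measured genes was 9.89%, and the medians of the 9 were -2.45 and -1.14. Of the 8 that the other cells also brought to the limit in each run, 5 were lower. Neurod1, a proneural factor, was listed at 0 in all 25 selected cells of run 1 and found in 0 of the 48 of run 2, and it was found in 1 and 2 other cells. Sox11, a factor of young neurons, was found in 11 and 34 selected cells at means of 634 and 4780 CPM, against 2808 and 19906 in the others. Its mean ratio over the runs turned to 0.20 when the neuron-rich cells alone were the comparison.

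Markers of other cell types gave mostly single genes. For vessels, Rgs5, a regulator of G-protein signalling known from pericytes, was found in 19 of 25 and 43 of 48 cells at 0, 2481 and 103214 CPM and at 0, 2176 and 88705, against 6 of 34 and 20 of 23 others, with ratios of 6.26 and 2.0. Without the 11 cells that stood apart, 4 of them by Rgs5 itself, it was no longer 2-fold higher in both runs, and its mean ratio was 2.83. Of the other 8 genes of the vessel list, Pecam1, Cdh5, Kdr, Cldn5 and Cspg4 were listed at 0 in all 73 cells. Vwf, a clotting factor of endothelial cells, was found in 1 cell of run 1 and 0 of run 2, Acta2, a smooth muscle actin, in 0 and 2, and Pdgfrb, a receptor of pericytes, in 0 and 0, although 1 cell of run 2 was above 0. For fibroblasts, Dcn, a matrix proteoglycan, was found in 19 and 22 cells, at means of 832 and 351.1 CPM against 0.371 and 70.04, while Col1a2 was listed at 0 in all 73. Of Bowman gland markers, Aqp5, a water channel of gland cells, was found in 10 and 13 cells and listed at 0 in all others. Bpifb9a, Muc5b and Ltf, further gland genes, were listed at 0 in all 73. Lgr5, a receptor of dividing basal cells, was found in 6 and 8 cells and listed at 0 in all others, and all 14 of those cells had Rgs5. Markers of immune cells and erythroid cells were not measured in both runs. The part of other cells in these values was not tested.

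**Figure D4:**
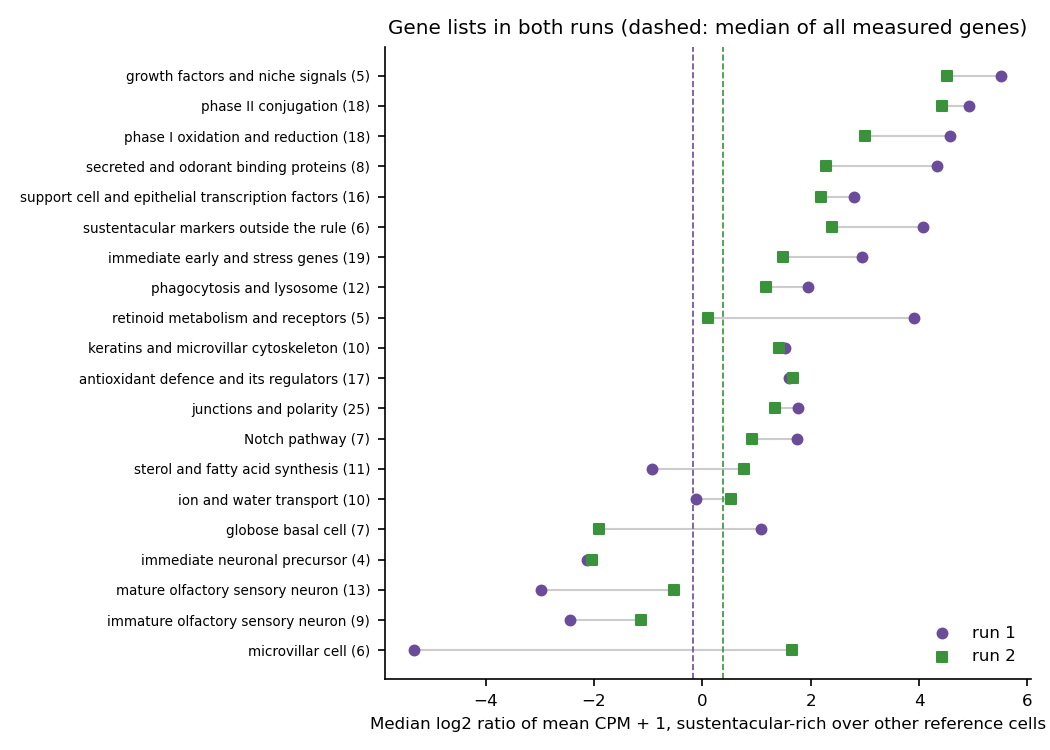
Median log2 ratio of mean CPM + 1, selected over other reference cells, for all but 1 of the gene lists with 3 or more genes measured in both runs (their number in brackets) in run 1 and run 2 (points), with the dashed lines at the medians over all 7047 genes measured in both runs, -0.17 and 0.38. Phase I and phase II lists lie between 3.0 and 4.91, and the lists of mature and immature neuron markers lie below the dashed lines.

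By the rule that names genes on size, the 15 with the largest ratio in the run where it was smaller, among genes found in at least 50% of the selected cells of each run, were Ces1d, Mgst1, Abca13, Gstm2, Cdh26, Tst, Gsta4, Cryl1, Acnat1, Clic6, Prdx6, Gstm1, Galm, Fmo6 and Agr2. Tst, a mitochondrial sulfurtransferase that detoxifies cyanide and is counted in the phase II list, had ratios of 5.29 and 5.10. Galm, a mutarotase of sugar metabolism, was found in 23 and 39 cells with 5.19 and 4.52. Abca13, a member of the ABC transporter family, was found in 22 and 30 cells at means of 1094 and 830 CPM against 23.4 and 5.46. Cdh26, an epithelial cadherin, was found in 18 and 24 cells and listed at 0 in all others of run 2. Agr2, a disulfide isomerase needed to fold mucins, was found in 22 and 28 cells with ratios of 4.74 and 4.19, and Clic6, an intracellular chloride channel protein, in 20 and 30.

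The 10 genes named as lower were Cops2, Sh3glb2, Fam103a1, Zcchc18, Cep290, Ttll7, Eid1, Fubp1, Stmn2 and Rnf220. Stmn2, a microtubule-destabilising protein of growing axons, was found in 8 and 23 selected cells with log2 ratios of -2.65 and -2.10. Ttll7, an enzyme that adds glutamate chains to tubulin in neurons, had -2.29 and -2.40, and Cep290, a protein of the ciliary transition zone, had -2.50 and -2.30. Every one of these 10 was still found in some selected cells of both runs. Fubp1, a DNA-binding regulator, had -2.15 and -2.57 by the mean but a mean ratio of 0.91 by the median over cells.

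**Figure D5:**
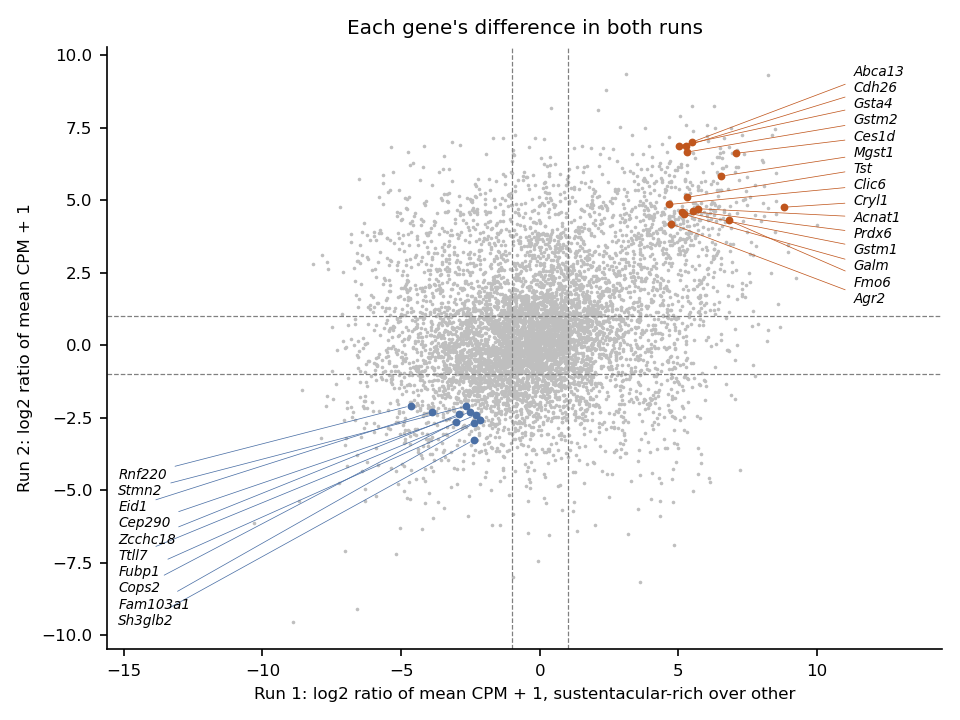
Log2 ratio of mean CPM + 1, selected over other reference cells, in run 1 (horizontal axis) and run 2 (vertical axis), 1 point per gene measured in both runs, with dashed lines at 2-fold and the named genes labelled. The 15 named higher genes lie above 4 on both axes and the 10 named lower genes lie below -2 on both.

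Between the runs, the sustentacular-rich cells differed over many genes. Of 8801 genes measured in them, 2973 (33.8%) were at least 2-fold higher in run 2 and 2814 (32%) at least 2-fold higher in run 1. The enzymes of detoxification did not all differ in the same direction. Of 22 phase I genes measured in the selected cells of either run, 10 were at least 2-fold higher in run 1 and 6 in run 2, with a median log2 ratio of run 2 over run 1 of -0.61. Of 22 phase II genes, 14 were higher in run 1 and 0 in run 2, with a median of -1.57, beside a median of -1.50 for the list in the other cells. The ratio was -1.89 for Cyp2g1, -2.04 for Cyp2f2, -2.36 for Cyb5 and -2.52 for Sod1, but -0.27 for Gstm1. Some genes differed likewise in the other cells, such as Sod1 at -1.96 and Cyp2f2 at -1.75. Some did not, such as Ugt2a1, at -1.20 in the selected cells and 3.85 in the others. Cyp2g1 and Ugt2a1 are selecting genes, so the rule itself shaped their levels in both sets. Among genes found in at least 50% of the cells of the higher run, the highest in run 2 were Homer2, a synaptic scaffold, at 4.58, Ahi1, a ciliary protein, at 4.16, Rp2h at 4.12 and Clasp2, a microtubule plus-end protein, at 4.10. The selected cells of run 2 were also those with more cells rich in neuron markers (58.3% against 20%). Without those cells, 71.6% of 7989 genes were at least 2-fold apart between the runs, against 65.8% of 8801 with them. Whether neuron markers bear on the differences between runs was not tested. The highest in run 1 were Mll1 at -4.64, which rested on 1 cell at 119508 CPM, Pdzk1ip1 at -4.18, Ndufaf3, a mitochondrial assembly factor, at -3.93, Gstm5 at -3.92 and Ifitm1, an interferon-induced membrane protein, at -3.81.

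Among the selected cells of a run, correlations between genes ranged widely. Over the 45 pairs of the 10 selecting genes, the Spearman correlation was -0.20, 0.21 and 0.72 (lowest, median and highest) in run 1, with 21 pairs under 0.2, and -0.05, 0.41 and 0.75 in run 2, with 4 under 0.2. The rule used these genes and cut the cells on their sum, so these values describe the selection. Cyp2g1 and Cyp2a5 had 0.72 and 0.75, whereas Cyp1a2 and Ugt2a1 had 0.18 and 0.67 and Cyp2a5 and Ugt2a1 0.34 and 0.69. The sums of the phase I and phase II lists, which hold no selecting gene, had 0.66 over the 25 cells of run 1 and 0.61 over the 48 of run 2. All of these share the same libraries and denominators, and the sum of the selecting genes also had a correlation of 0.49 with the number of fragments in run 1, against 0.01 in run 2. With the neuron markers it was -0.32 and -0.07, and with the immediate early genes -0.13 and 0.46. Omp and Cyp2g1 had -0.62 in run 1 and 0.19 in run 2. To be named as variable, a gene had to be found in 25% to 75% of the selected cells of each run. This limit barred widely found enzymes such as Cyp2f2 beforehand. The 8 genes named as the most variable were Sox11, Nras, Lamp2, Tram1, Impact, Wrb, Golt1b and Bclaf1. They reached 2814 to 53059 CPM in single cells of run 1 except Tram1 at 1249 and Bclaf1 at 1737, and each was listed at 0 in at least 7 of the 25.

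Outside the reference the condition was met by few cells. It was met by 2 of 48 Neurog1-eGFP+ cells 5 days after bulbectomy, by 2 of 42 OMP-eGFP+ cells 14 days after it and by 3 of 29 transplanted OMP-eGFP+ cells. It was met by 0 of 46 uninjured and 0 of 25 14-day Neurog1-eGFP+ cells. The 7 cells had sums of 7303 to 77854 CPM, and 1 of them, an OMP-eGFP+ cell, was rich in neuron markers too, with Omp at 3823 CPM. The sorts differ from the reference in strain and gate, which cannot be told apart from cell type here.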

How the data were processed

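The authors deposited 1 table of scaled signal per gene (their count table, in which 99.9% of values above 0 are not whole) and 1 table of FPKM. Cuffnorm, Cufflinks 2.2.1, the aligner STAR 2.5.2a and FastQC are listed with build mm9 in the submitters' processing notes; their order and settings are not given in the sources used here. Signal was divided by its column sum to give CPM. Of 23308 entries, 27 with names altered to dates (0.471% of the reference signal) were left out, leaving 23281. In each of the 130 reference cells, at least 97.1% of the low values above 0 were whole multiples of a step within 0.02. Fragments were recovered from that step, and higher values were rounded to it without this check. The test for such steps in the deposited signal does not make the values counts, so no count model was used.

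With no animal named, each run was 1 sample: no p-value was computed, and shares have exact Clopper-Pearson 95% intervals. Ratios are log2 of mean CPM + 1. The members and the 30 gene lists were chosen with earlier results of these data known, and 9 of the listed genes had no entry in the deposited data. Genes were named by the lists and by size: the 15 largest and 10 most negative of the ratios in the run where they were weaker, 8 most variable, and 8 highest and 8 lowest between runs, at a mean CPM of 50 or more (200 for variable genes); a few of them, and 1 list, are not reported here. Alternatives changed the pseudocount, the measured limit, the mean, the table, depth (thinned to 50000 fragments) and the cell limits. Python 3.11.15, numpy 2.4.6, pandas 2.3.3, scipy 1.17.1 and matplotlib 3.10.9 were used. The calculation was tested on simulated data. No column was identical to another.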

Additional observations from a re-analysis of the deposited data

Results flagged for a closer look

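Some cells outside the limits of gene number met the condition on the selecting genes: 10 of 28 cells with fewer than 1000 genes in run 1, 12 of 25 in run 2, and 3 of 9 cells with more than 10000 genes in run 1. They are in no comparison of the report.

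For 3 gene lists the median log2 ratio of selected over other cells had opposite signs in the runs, and the difference was not tested. It was 1.09 in run 1 and -1.91 in run 2 for globose basal cell markers, -5.32 and 1.65 for microvillar cell markers, and -0.93 and 0.76 for sterol and fatty acid synthesis. Without the 11 cells that stood apart, 4 of them rich in microvillar markers, the microvillar medians were -5.69 and -2.36 over 4 genes, so the signs were no longer opposite; the medians for globose basal cell markers were 0.89 and -2.03, and for sterol and fatty acid synthesis -1.95 and 0.28. Among list and named genes measured in both runs, 17 were at least 2-fold apart in opposite directions and 10 of those at least 4-fold in each run. Ano2, a chloride channel of sensory cilia, was at -2.60 and 2.11, and Cnga4, a subunit of the ciliary cation channel, at -4.00 and 2.07. Ascl3, a factor of microvillar cells, was at -5.16 and 2.59, and Cftr at -3.55 and 5.07. Arnt, the partner of Ahr, was at -2.91 and 3.82. Tjp3, a tight junction scaffold, was at -4.03 and 3.18, and Krt14, a keratin of horizontal basal cells, at -3.71 and 3.18. The summed horizontal basal markers were 0 in 32 of the 34 other cells of run 1, so the Krt14 ratio there rested on very few cells. Crabp1, a retinoic acid-binding protein, was at 2.73 and -2.25, Tex15 at 2.86 and -2.03, and Top2a, a topoisomerase of dividing cells, at 2.51 and -5.24. These differences between runs were not tested.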

How the results depend on the processing

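The number of selected cells stayed within 1.5 times of 25 and 48 under each limit tried. The lowest numbers were 18 and 34 (2000 or more genes). The highest were 28 in run 1 (no upper limit on genes) and 49 in run 2 (a summed CPM of 2500 or more). The 1192 higher genes were 16.9% of 7047 measured. They became 1940 (19.2%) with a measured limit of 1 CPM, 470 (14.8%) with 50 CPM, 38.8% of 830 genes by the median, 29.97% of 1011 by the mean of log2 values and 755 (15.2%) in the FPKM table, and 2887 (32.7%) and 3319 (39.5%) in run 1 or run 2 alone. The 697 lower genes (9.89%) became 10.2% of 3182 with 50 CPM, 74 (8.92%) by the median, 72 (7.12%) by the mean of log2 values and 1228 (18.5%) without selected cells rich in neuron markers, and 3250 (36.9%) and 1962 (23.4%) in run 1 or run 2 alone. The 5787 genes that differed between runs became 2948 (64.2%) with 50 CPM, 1076 (79.5%) by the median and 989 (63.2%) by the mean of log2 values. Fewer genes are measured with the higher limit, the median and the mean of log2 values; other causes were not tested. The share of counted genes that were higher was 63.1%, and 81.3% by the median, 80.8% by the mean of log2 values and 47.4% without selected cells rich in neuron markers. The mean ratio turned positive for Ahr, to 0.41 with 2000 or more genes and 0.44 against neuron-rich cells, for Fubp1, to 0.91 by the median, and for Sox11, to 0.20 against neuron-rich cells. The ratio of run 2 over run 1 for Mll1 became 0.20 with 2000 or more genes. Of the named and list genes counted as higher, 95 stayed so in every alternative where they were measured and 20 did not, and 8 of 26 counted as lower stayed so. No paired analysis was possible because the cells of the sets share no replicate numbers and the result comes from no test. Depth sets the limit at low levels, since 10 CPM is 0.649 fragments in the shallowest cell.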
